A study of Mus musculus with 6 samples.

Results

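Gabrr2, Th, Slc17a7, Mei4 and Fut1 are 5 genes best known from nerve cells, the germ line and the glycosylation of cell surfaces, and all 5 were higher in gastrocnemius, the large calf muscle, of Ogg1Tg mice than of Control mice. They were picked by symbol because earlier results of these data showed them higher, out of 35474 gene symbols in the files. Their difference between the groups is therefore a description here and carries no test. Ogg1Tg mice carry human OGG1-1a, a DNA repair enzyme that removes oxidised guanine, fused to a mitochondrial translocation signal and driven by a CMV/AG promoter, which is not specific to muscle. Control mice were C57BL/6J mice. The 3 Ogg1Tg and 3 Control mice were males of a C57BL/6J background, aged 20 weeks, fed chow and otherwise untreated, and each gave 1 library of total RNA. The sources used here do not give the number of founder mice.

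Gabrr2 encodes a subunit of chloride channels that are opened by the inhibitory transmitter GABA and are known mainly from the retina. Th encodes tyrosine hydroxylase, the rate-limiting enzyme of dopamine and noradrenaline synthesis, known from catecholamine neurons, sympathetic nerves and adrenal chromaffin cells. Slc17a7 encodes VGLUT1, which loads glutamate into synaptic vesicles. Mei4 encodes a partner of the machinery that makes the DNA breaks of meiotic recombination in germ cells. Fut1 encodes a fucosyltransferase that adds fucose to galactose at the ends of sugar chains and so makes the H antigen. The files hold gastrocnemius alone, so the tissues named here are background and were not measured.

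Each library held 45189860 to 56126407 reads in named genes. Values below are scaled reads, which are gene reads multiplied by 1 factor per library, between 1.006 and 1.399 scaled reads for 1 read. Mouse Ogg1 averaged 189.9 ± 13.1 scaled reads in Ogg1Tg muscle and 190.8 ± 35.7 in Control muscle (SD, n = 3 each). The transgene is human, so this does not measure it. Markers of muscle fibres were abundant, with Ckm, muscle creatine kinase, at 169389 to 289698 scaled reads in Ogg1Tg and 223858 to 266205 in Control libraries, and 12 such markers were tested. All 12 had a log2 fold change below 0, with a median of -0.39 against -0.02 over all genes tested. None was called by limma or edgeR, and 1, Mb, was called lower by DESeq2 and was the 1 at an unadjusted p under 0.05. Mb, myoglobin, averaged 14900.0 ± 8509 in Ogg1Tg and 36037 ± 8692 in Control muscle (limma adjusted p = 0.25, SD, n = 3 each). The library of Ogg1Tg replicate 3 was the least like the others, with a Spearman correlation across genes of 0.946 to 0.953 with them, against 0.975 to 0.983 among the other 5. In that library 15 leukocyte markers summed to 27536 scaled reads, against 2473 and 2335 in Ogg1Tg replicates 1 and 2 and 6030 to 7262 in Control libraries, and 8 adipocyte markers summed to 12889, against 4365 and 3969 in Ogg1Tg replicates 1 and 2 and 4602 to 5140 in Control libraries. Of 23312 genes tested with limma, 92 were called higher in Ogg1Tg muscle and 35 lower, at a Benjamini-Hochberg adjusted p under 0.05. Leaving out Ogg1Tg replicate 1, 2 or 3 turned that total of 127 into 62, 194 or 425, and leaving out Control replicate 1, 2 or 3 turned it into 43, 42 or 35.

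All 5 genes were called higher by limma, where 0.395% of all genes tested were, and for all 5 every Ogg1Tg library lay above every Control library, which held for 7.03% of genes tested. Since the genes were chosen on this contrast, nothing is read from those shares. All 5 passed the filter of a mean of at least 1 scaled read over the 6 libraries, but only 3 reached that mean in the Control group, and Th and Fut1 passed through the Ogg1Tg group alone. The phrase switched on fitted 3 of the 5: Fut1, Th and Mei4 had 0, 1 and 4 reads in the 3 Control libraries together, while Gabrr2 and Slc17a7 were read in every Control library. Per kilobase of annotated exon, Gabrr2 was the highest of the 5 in Ogg1Tg muscle, at 422 ± 31.9 scaled reads per kb, and Fut1 the next at 40.6 ± 3.998 (SD, n = 3). Th, Slc17a7 and Mei4 followed at 24.6 ± 24.3, 24.2 ± 4.61 and 22.9 ± 5.48 scaled reads per kb, and these 3 levels did not differ beyond their spread. In Control muscle Gabrr2 was again the highest, at 15.3 ± 5.38 scaled reads per kb, ahead of Slc17a7 at 2.36 ± 0.254, with Mei4, Th and Fut1 below 1.

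**Figure D1:**
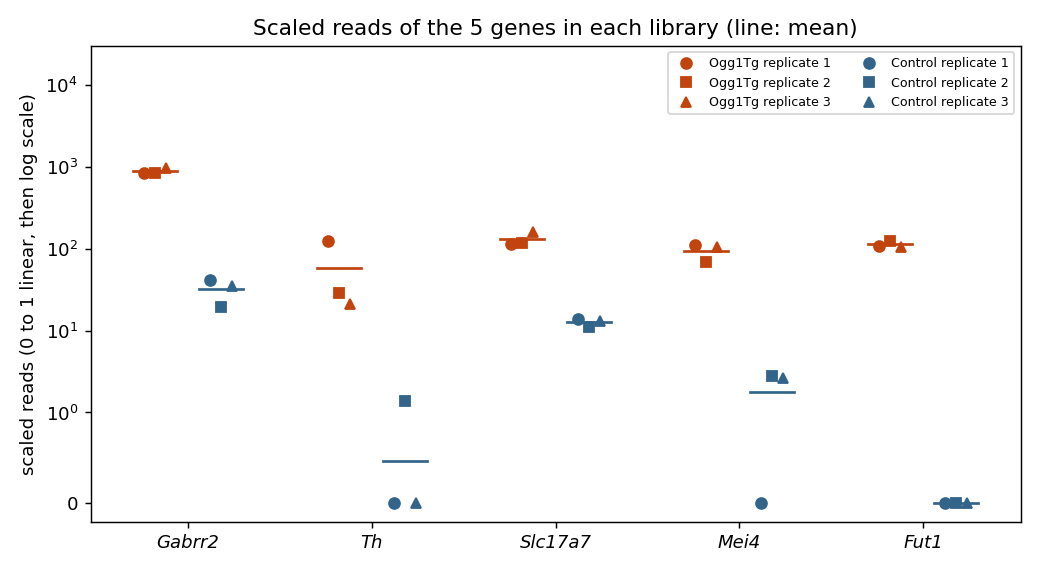
Scaled reads (vertical axis, linear from 0 to 1 and logarithmic above) of the 5 genes in each of the 3 Ogg1Tg and 3 Control libraries, with a line at the group mean. Every Ogg1Tg point lies above every Control point of the same gene, and Th alone spreads widely among the Ogg1Tg mice, from 21.1 to 124.

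Gabrr2, the receptor subunit, had 852, 847 and 966 scaled reads in Ogg1Tg replicates 1, 2 and 3, and 41.6, 19.6 and 35.2 in Control replicates 1, 2 and 3. The Ogg1Tg libraries were close to each other and far above the Control libraries, which held 14 to 30 reads each. The fitted log2 fold change was 4.81 ± 0.28 (SE), a fold of 28.0 on the scale of scaled reads + 1. Gabrr2 (ENSMUSG00000023267.10) lies on the plus strand of chromosome 4, from 33062999 to 33095865 of GRCm38, the assembly of mm10. Its closest relative, Gabrr1, a subunit of the same class, lies 36.7 kb downstream, and measured 18.8 ± 8.57 in Ogg1Tg and 38.4 ± 16.1 in Control muscle (limma adjusted p = 0.51). Gabrr3, the remaining subunit gene of that class, had 0 reads in all 6 libraries.

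Of 20 other GABA receptor subunit genes, 15 could be tested and none was called by limma or edgeR, with 1 at an unadjusted p under 0.05. That gene, Gabrb2, a subunit of the common GABA-A receptors, was called by DESeq2. It had 94.4, 56.9 and 54.3 scaled reads in Ogg1Tg replicates 1, 2 and 3 and 5.55, 26.6 and 15.7 in Control replicates 1, 2 and 3, which did not overlap (limma adjusted p = 0.18). Over all 6 libraries the listed subunit genes, which leave out Gabrr2, with the highest means were Gabbr1, of the G protein coupled GABA-B receptor, at 763 ± 165 and 664 ± 79.0, and Gabre at 46.8 ± 16.2 and 65.6 ± 26.9, in Ogg1Tg and Control muscle in that order (SD, n = 3 each). None of 11 tested genes of GABA synthesis, transport and breakdown was called by limma, edgeR or DESeq2, with 2 at an unadjusted p under 0.05. Of the enzymes that make GABA, Gad2 measured 140.0 ± 7.35 in Ogg1Tg and 136 ± 20.0 in Control muscle, and Gad1 had 58 reads in Ogg1Tg replicate 3 and 0 in the other 5 libraries. Gabarap and Gphn, which bind GABA receptors at the membrane and in the cell, had the highest means of that list over all 6 libraries, with limma adjusted p of 0.63 and 0.62.

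Th had 124, 29.1 and 21.1 scaled reads in Ogg1Tg replicates 1, 2 and 3, and 0, 1.40 and 0 in Control replicates 1, 2 and 3. Ogg1Tg replicate 1 stood well above the other Ogg1Tg mice, and the Control value is 1 read. As reads these were 112, 22 and 21 in the Ogg1Tg libraries, with exact Poisson 95% intervals of 92.2 to 135, 13.8 to 33.3 and 13.0 to 32.1, which cover counting error only. The SD of log2(scaled reads + 1) among the Ogg1Tg libraries was 1.34, above that of 90.7% of the 3155 tested genes whose Ogg1Tg mean was within 2-fold of that of Th. The ratio of summed scaled reads was 129, with a 95% counting interval from 22.8 to 5119. It was 54.1, 155 and 178 without Ogg1Tg replicates 1, 2 and 3, and 86.6 and 84.0 without Control replicates 1 and 3. Without Control replicate 2, where the Control reads are 0, it was 29.0 against a floor of 3 reads over the group. Th (ENSMUSG00000000214.11) lies on the minus strand of chromosome 7, from 142892752 to 142931128.

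Of 17 tested genes that make, store or break down catecholamines, none was called by limma, edgeR or DESeq2, with 3 at an unadjusted p under 0.05. One of the 3 was Dbh, dopamine beta-hydroxylase, the enzyme that turns dopamine into noradrenaline. It had 44.4, 9.26 and 12.1 scaled reads in Ogg1Tg replicates 1, 2 and 3 and 0, 2.80 and 0 in Control replicates 1, 2 and 3 (limma adjusted p = 0.17). Dbh was thus highest in the same Ogg1Tg library as Th, as were Gdf15 and Vmn2r3, described below. Th and Dbh were also read in the same Control library, at 1 and 2 reads. Fgf21 and Vmn2r3, at 1 and 2 reads, were likewise read in that Control library alone, so nothing is read from it. Pnmt, which makes adrenaline from noradrenaline, had 11.1, 19.8 and 11.1 in the Ogg1Tg libraries and 37.4, 43.4 and 28.7 in the Control libraries, the opposite order (limma adjusted p = 0.30). Ddc, which acts between Th and Dbh in the pathway, measured 23.7 ± 5.13 in Ogg1Tg and 18.4 ± 8.96 in Control muscle, and Gch1, the enzyme that starts the synthesis of the cofactor of Th, 78.9 ± 20.2 and 89.1 ± 20.6. Maoa, which breaks catecholamines down, was among the genes with the highest means of the list over all 6 libraries, at 1420 ± 224 in Ogg1Tg and 1505 ± 62.8 in Control muscle (SD, n = 3 each, limma adjusted p = 0.83).

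The start of Th is shown because its window holds a match to the cyclic AMP response element, TGACGTCA, here in capitals. The window is the stretch from 250 bases before to 50 bases after the RefSeq start, on the minus strand at chr7:142899946-142900245 of GRCm38.p6.
Th: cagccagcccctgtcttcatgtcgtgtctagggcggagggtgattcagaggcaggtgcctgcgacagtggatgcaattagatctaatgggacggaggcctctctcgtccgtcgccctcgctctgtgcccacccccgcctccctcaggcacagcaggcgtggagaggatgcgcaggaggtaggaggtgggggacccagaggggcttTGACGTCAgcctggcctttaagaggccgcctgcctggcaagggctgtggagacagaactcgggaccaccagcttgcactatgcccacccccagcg
The match begins 45 bases before the RefSeq start, and the whole window lies inside the span of Th given above. Such a match on either strand occurred in 1.79% of the 32851 RefSeq windows of this length, and in none of the windows of the other 4 genes. A match of letters is a description of the sequence and not a measured binding site.

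Slc17a7, the vesicular glutamate transporter, had 113, 119 and 159 scaled reads in Ogg1Tg replicates 1, 2 and 3, and 13.9, 11.2 and 13.1 in Control replicates 1, 2 and 3. The Control libraries were even, with 8 to 10 reads each, and Ogg1Tg replicate 3 was the highest of all. The mean of Ogg1Tg replicates 1 and 2 alone was 116. The fitted log2 fold change was 3.25 ± 0.33 (SE), a fold of 9.52, the smallest of the 5. The gene (ENSMUSG00000070570.5) lies on the plus strand of chromosome 7, from 45163949 to 45176142, and contains the microRNA gene Mir7055 on the same strand, which was not analysed here. Of 13 tested genes of the Slc17 family and of glutamate handling, none was called by limma, edgeR or DESeq2, with 2 at an unadjusted p under 0.05. The other vesicular glutamate transporters were Slc17a6, with 0 reads in Ogg1Tg and 4 in Control muscle, and Slc17a8, at 124 ± 44.5 in Ogg1Tg and 136 ± 23.2 in Control muscle (limma adjusted p = 0.85). Glul, glutamine synthetase, was among the genes with the highest means of the list over all 6 libraries, at 5098 ± 1489 in Ogg1Tg and 8046 ± 647 in Control muscle (SD, n = 3 each), with no overlap between the groups (limma adjusted p = 0.27).

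Mei4 had 111, 68.8 and 104 scaled reads in Ogg1Tg replicates 1, 2 and 3, and 0, 2.80 and 2.61 in Control replicates 1, 2 and 3. Ogg1Tg replicate 2 was the lowest of its group and still far above the Control libraries, which held at most 2 reads each. The ratio of summed scaled reads was 53.0, with a 95% counting interval from 20.4 to 196 that rests on 4 Control reads. Mei4 (ENSMUSG00000043289.12) spans chromosome 9 from 81863670 to 82206007 on the plus strand. GENCODE M21 places a pair of processed pseudogenes and an unverified transcript within that span, of which Gm15896 is in the files, with 0 reads in all 6 libraries.

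Of 25 other tested genes of meiotic recombination and synapsis, none was called by limma, edgeR or DESeq2, with 1 at an unadjusted p under 0.05. No read fell on 7 of the 34 in the files in any of the 6 libraries. Rec114, which forms a complex with Mei4, measured 37.7 ± 12.4 in Ogg1Tg and 28.3 ± 5.74 in Control muscle (limma adjusted p = 0.76). Spo11, the enzyme that cuts the DNA, measured 30.3 ± 9.87 and 24.1 ± 16.2, and Mei1 had 1 read in Ogg1Tg and 0 in Control muscle. Hsf2bp, which acts with Brca2 in meiotic repair, was the gene at an unadjusted p under 0.05, with 48.9, 29.1 and 31.2 scaled reads in Ogg1Tg replicates 1, 2 and 3 and 2.77, 0 and 18.3 in Control replicates 1, 2 and 3 (limma adjusted p = 0.28). Mlh3 and Prdm9 had the highest means over all 6 libraries, at 1383 ± 190 and 294 ± 32.6 in Ogg1Tg and 1464 ± 136 and 321 ± 53.6 in Control muscle (SD, n = 3 each).

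Fut1 had 109, 126 and 105 scaled reads in Ogg1Tg replicates 1, 2 and 3, and 0 in each Control library. The Ogg1Tg libraries, at 98, 95 and 104 reads, lay close together: the SD on the log2 scale was 0.14, below that of most of the 3494 tested genes of like level, whose median was 0.35. Taking 3 reads over all Control libraries as the floor, Fut1 was 82.3-fold higher in Ogg1Tg muscle. With each library left out in turn this was 53.6-fold to 85.5-fold, the lowest without Control replicate 3. These floor values leave out the counting error of the Ogg1Tg reads. The lower end of the 95% counting interval, as given for Th and Mei4, was 66.5. Fut1 (ENSMUSG00000008461.6) lies on the plus strand of chromosome 7, from 45617289 to 45621059. Fut2, which makes the same linkage in epithelia, measured 106 ± 12.9 in Ogg1Tg and 115 ± 6.61 in Control muscle (limma adjusted p = 0.88). Sec1, another gene of that branch, measured 12.7 ± 3.12 and 9.12 ± 4.37. Of 20 tested genes of fucosylation, none was called by limma, edgeR or DESeq2, with 3 at an unadjusted p under 0.05. One of the 3 was Fut4, which adds fucose to N-acetylglucosamine, with 29.99, 59.5 and 87.5 scaled reads in Ogg1Tg replicates 1, 2 and 3 and 8.32, 16.8 and 27.4 in Control replicates 1, 2 and 3 (limma adjusted p = 0.30). B4galt1, a galactosyltransferase, and Fut8, which adds the core fucose of N-glycans, had the highest means of the list over all 6 libraries, at 2034 ± 103 and 986 ± 173 in Ogg1Tg and 2431 ± 211 and 1445 ± 138 in Control muscle (limma adjusted p = 0.48 and 0.23).

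In GENCODE M21, 1798 bases separate Fut1 from Fgf21, a stress hormone gene that runs the other way on the minus strand. Fgf21 had 1125, 800.4 and 1290 scaled reads in Ogg1Tg replicates 1, 2 and 3, and 0, 1.40 and 0 in Control replicates 1, 2 and 3 (limma adjusted p = 2.9e-05). For each 100 reads of Fgf21 there were 9.67, 15.7 and 8.11 reads of Fut1 in Ogg1Tg replicates 1, 2 and 3. The Ogg1Tg library lowest in scaled reads of Fgf21 was the highest in those of Fut1. As reads, Fut1 had 98, 95 and 104 in replicates 1, 2 and 3. Their exact Poisson 95% intervals, 79.6 to 119, 76.9 to 116 and 85.0 to 126, overlap, so nothing is read from the order of Fut1. On the other side of Fut1, Izumo1, a sperm protein gene 0.752 kb downstream, had 14 reads in Ogg1Tg and 5 in Control muscle (limma adjusted p = 0.62). The windows of both starts are shown because the neighbours differ in the letters they hold, with matches in capitals.
Fut1: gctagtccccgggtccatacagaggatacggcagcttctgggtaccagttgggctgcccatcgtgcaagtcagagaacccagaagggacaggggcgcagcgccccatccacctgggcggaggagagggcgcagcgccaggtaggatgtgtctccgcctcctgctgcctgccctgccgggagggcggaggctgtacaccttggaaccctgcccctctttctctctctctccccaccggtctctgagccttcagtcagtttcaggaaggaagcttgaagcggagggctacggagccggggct
Fgf21: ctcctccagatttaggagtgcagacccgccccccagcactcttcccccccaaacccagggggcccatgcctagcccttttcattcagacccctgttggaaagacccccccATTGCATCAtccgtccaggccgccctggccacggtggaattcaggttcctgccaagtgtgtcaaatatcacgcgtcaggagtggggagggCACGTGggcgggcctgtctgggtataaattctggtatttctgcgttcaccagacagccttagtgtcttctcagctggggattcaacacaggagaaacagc
The Fut1 window is chr7:45617356-45617655 on the plus strand and the Fgf21 window chr7:45615441-45615740 on the minus strand, both of GRCm38.p6 from RefSeq. The Fgf21 window holds ATTGCATCA 140 bases before its start, and the E-box CACGTG 50 bases before it. Read on the other strand, ATTGCATCA matches TGATGNAAT, the longer form of the amino acid response element searched here. The longer form was found in 0.965% and the E-box in 7.15% of all windows of this length. Neither is in the windows of the 5 genes. Of 14 stress response genes, 1, Fgf21 itself, held the longer form, and 2 held the E-box. TGATGNAA, a shorter form that lies within the longer one and was added after the other matches had been seen, occurred in 3.97% of windows and in none of the 5. Both REST half-sites searched, TTCAGCACC and GGACAGC, were also without a match in the 5, and occurred in 0.371% and 6.56% of all windows. The shorter form was in the windows of 5 of 14 stress response genes, those of Fgf21, Slc7a11, Asns, Trib3 and Chac1. The windows reach 250 bases upstream of the RefSeq start and say nothing of elements farther away. Those of Fut1 and Th lie wholly inside the GENCODE M21 spans given for these genes. They therefore hold no base upstream of those spans.

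Over the 6 lists of family and pathway genes together, 0 of 101 tested genes were called by limma, where 0.545% of all genes tested were called in either direction. At an unadjusted p under 0.05 there were 12, or 11.88%, against 11.02% of all genes tested, with 0 called by edgeR and 1 by DESeq2. Their median log2 fold change was 0.02, against -0.02 over all genes tested. For 7 of the 101, or 6.93%, every Ogg1Tg library lay above every Control library, close to the 7.03% of all genes tested. For 10, or 9.90%, every Ogg1Tg library lay below, which held for 11.3% of all genes tested.

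**Figure D2:**
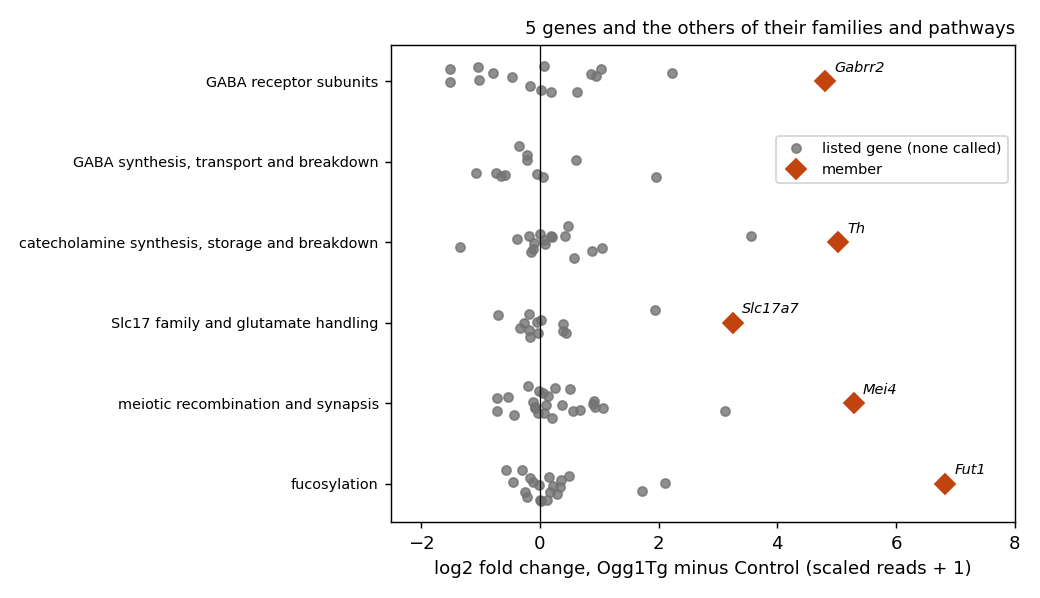
Log2 fold change (Ogg1Tg minus Control, from scaled reads + 1; horizontal axis) of the 5 genes (diamonds) and of the other tested genes of their families and pathways (circles, spread vertically at random within a list). The diamonds lie at 3.25 to 6.83 and no circle was called by limma; the highest circle is Dbh at 3.55.

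Summed markers of neurons, male germ cells, retina and Schwann cells overlapped between the groups. Of 19 neuron markers 18 were in the files and 13 tested. The 18 summed to 257 to 389 scaled reads in Ogg1Tg and 258 to 390.3 in Control libraries. Of those tested, 8 had a log2 fold change above 0 and 5 below. Stmn2, the highest, had 307 reads in Ogg1Tg and 298 in Control muscle. The 2 at an unadjusted p under 0.05 went opposite ways: Rbfox3 had 19 and 2 reads, and Syp 85 and 158. Ina and Chat were at 0 in all 6 libraries, and Snap25 at 2 and 1 reads in the groups. Of 15 male germ cell markers 9 were tested. All 15 summed to 97.9 to 132 in Ogg1Tg and 123 to 170 in Control libraries, with Sycp1 and Tex101 at 0. Of those tested, 3 had a log2 fold change above 0 and 6 below. The 2 at an unadjusted p under 0.05 were Ddx4, with 8 reads in Ogg1Tg and 29 in Control muscle, and Dazl, with 32 and 71. Of 13 retina markers 11 were tested; they summed to 5959 to 8674 in Ogg1Tg and 8628 to 9316 in Control libraries, nearly all from Prkca and Sag. Of 9 Schwann cell markers 9 were tested; they summed to 4662 to 9046 in Ogg1Tg and 6353 to 7172 in Control libraries. None of these 4 lists had a gene called by limma, edgeR or DESeq2, with 2, 2, 0 and 0 at an unadjusted p under 0.05.

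The 12 markers of sympathetic and chromaffin cells did move with the groups as a sum. They came to 1003, 962 and 1175 scaled reads in Ogg1Tg replicates 1, 2 and 3 and to 828, 831 and 825 in Control replicates 1, 2 and 3. Of the 9 tested none was called by limma, edgeR or DESeq2, and Dbh, which is on the catecholamine list too, was the 1 at an unadjusted p under 0.05. The sum came mainly from Ret, Slc6a2 and Slc18a2. Of the markers that define these cells, Chga and Npy each had 2 reads in Ogg1Tg and 0 in Control muscle. The part of such cells in the Th values was not tested. In bulk muscle, more cells of a type and more RNA per cell cannot be told apart. Leukocyte and adipocyte markers, none of them called by limma, edgeR or DESeq2 and with 2 and 0 at an unadjusted p under 0.05, had their highest value in Ogg1Tg replicate 3 for all 15 and all 8 of them. Ighm, the heavy chain of IgM, had 312, 544 and 6308 scaled reads in Ogg1Tg replicates 1, 2 and 3 and 3607, 4173 and 3819 in Control replicates 1, 2 and 3, and without Ogg1Tg replicate 3 it was called lower. Without that library the means of Gabrr2, Th, Slc17a7, Mei4 and Fut1 in Ogg1Tg muscle were 849, 76.8, 116, 89.9 and 117 scaled reads, against 888, 58.2, 130.4, 94.5 and 113 with it.

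With all 6 libraries, the genes called by limma around the 5 lay near Slc17a7 and Fut1 only. Within 500 kb on either side of any of the 5, 127 other genes were tested, and 2 were called higher by limma and none lower, against 0.395% and 0.15% of all genes tested, with a median log2 fold change of 0.00. Both lie within that distance of Slc17a7, and of the 2 only Fgf21 lies within it of Fut1. Slc17a7 and Fut1 are 441 kb apart on chromosome 7. Fgf21 lies between Slc17a7 and Fut1. Atf5, a transcription factor gene of the stress response, lies 347 kb from Slc17a7 on the side away from Fut1. Atf5 averaged 11431 ± 2423 scaled reads in Ogg1Tg and 2332 ± 451 in Control muscle (limma adjusted p = 0.0010, SD, n = 3 each). The count of 2 was 6 without Ogg1Tg replicate 3, 3 higher and 3 lower, adding Gys1, Igf2, Kcna7 and Rragd, and 8 with DESeq2, 6 higher and 2 lower. Near Gabrr2 and Th 20 genes each were tested, and near Mei4 1, with none called by limma.

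**Figure D3:**
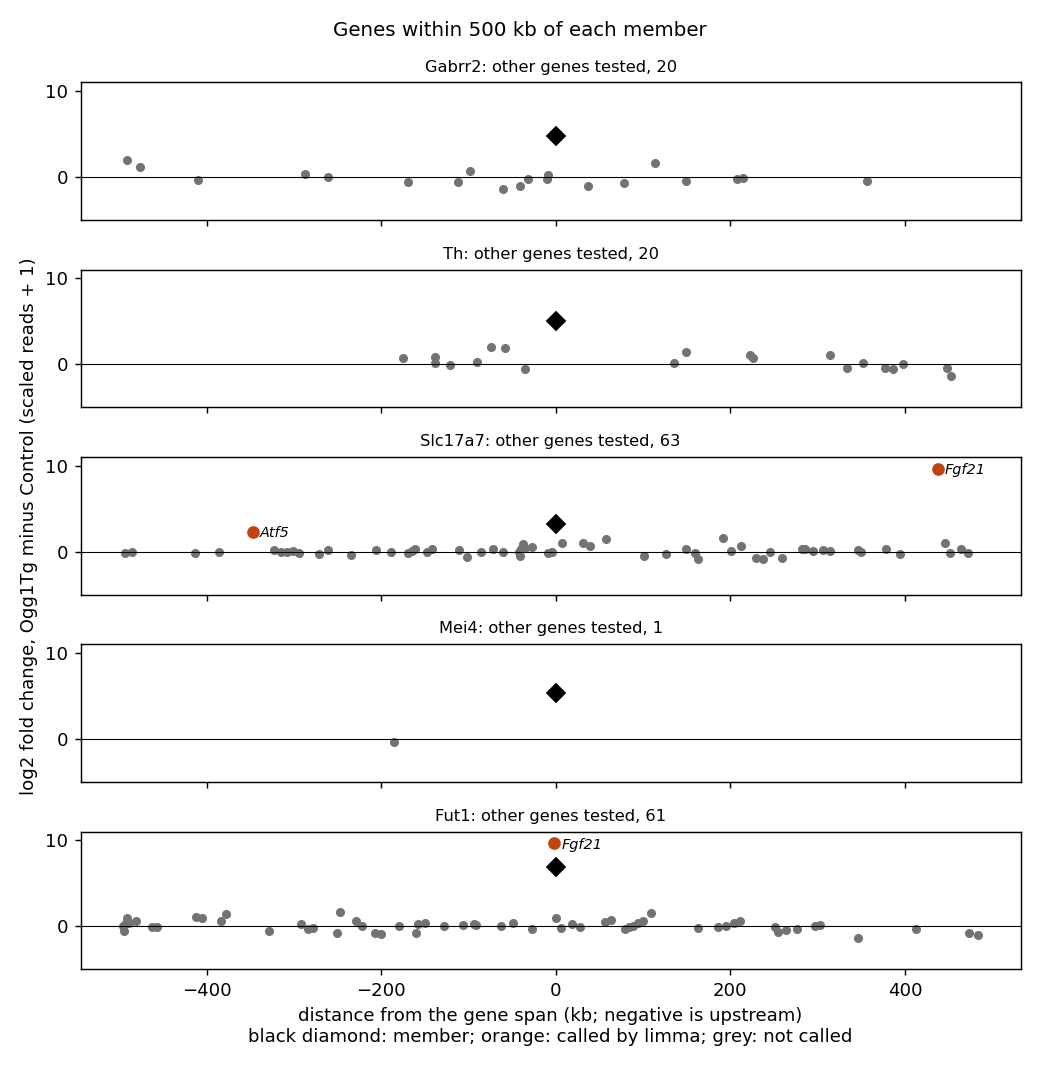
Log2 fold change (Ogg1Tg minus Control; vertical axis) of the tested genes within 500 kb of each of the 5 genes against their distance in kb from its span, with upstream to the left. Diamonds are the 5 genes and orange circles the genes called by limma, which are Atf5 and Fgf21 in the Slc17a7 panel and Fgf21 in the Fut1 panel; grey circles were not called.

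Of the nearest tested coding genes not yet described, none was called by limma. Ube2j1, 10.6 kb upstream of Gabrr2, measured 1627 ± 215 in Ogg1Tg and 1850.1 ± 70.2 in Control muscle. Pih1d1, 3.88 kb upstream of Slc17a7, measured 386 ± 38.9 and 415 ± 18.1, and Ccdc155, 7.48 kb downstream, had 17 reads in Ogg1Tg and 10 in Control muscle. Ascl2 and Ins2, upstream and downstream of Th, had 2 and 7 reads in Ogg1Tg and 3 and 0 in Control muscle. Limma gave these 5 genes an adjusted p between 0.63 and 0.86. The single tested gene within 500 kb of Mei4 was Gm9531, a pseudogene.

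The 3 genes closest to each of the 5 were found from log2(scaled reads + 1) minus the Control mean, as the root mean square difference over the 6 libraries. Genes with provisional names, and some others given with the processing, were left out of this search. For Gabrr2 they were Asns, Mthfd2 and Psat1, enzymes of asparagine, folate and serine metabolism, at differences of 0.33, 0.48 and 0.49. For Slc17a7 they were BC049715, Phgdh, an enzyme of serine synthesis, and Sesn2, a stress-induced sestrin, at 0.21, 0.23 and 0.27. BC049715 had 19 reads in Ogg1Tg and 0 in Control muscle, so its small difference rests on few reads. For Mei4 they were the stress hormone Gdf15, the cystine transporter Slc7a11 and Mthfd2, at 0.49, 0.70 and 0.70. For Th they were Vmn2r3, a vomeronasal receptor gene, Gdf15 and Mthfd2, at 0.44, 0.51 and 0.73. Fut1 had no close match among the names kept: its nearest of these were Slc7a11, Psat1 and Mei4, at 0.95, 1.08 and 1.29. Gm11454, a name left out, had 61.1, 42.3 and 79.5 scaled reads in Ogg1Tg replicates 1, 2 and 3 and 0 in each Control library. Of 14 stress response genes set beside the 5, a list drawn up with these results known, 12 were called higher by limma, 11 by edgeR and 14 by DESeq2, against 0.395% of all genes tested by limma. They include Asns, Mthfd2, Psat1, Phgdh, Sesn2, Gdf15 and Slc7a11. The measure favours genes with a difference of like size, and all 6 libraries enter it, so it adds nothing to the choice of the 5.

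**Figure D4:**
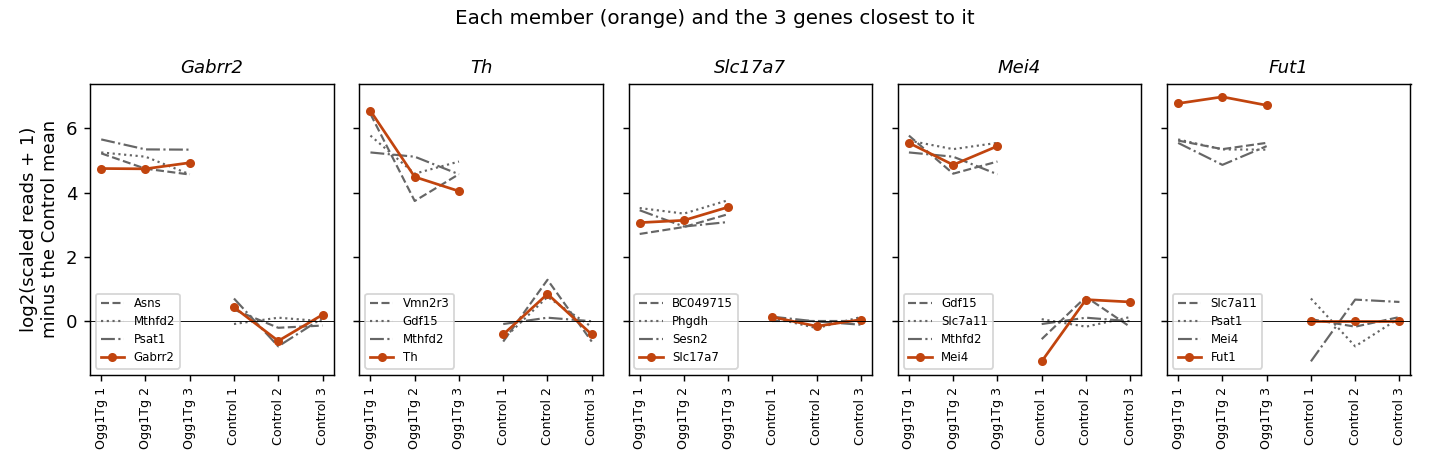
Log2(scaled reads + 1) minus the Control mean (vertical axis) in the 3 Ogg1Tg and 3 Control libraries for each of the 5 genes (orange) and the 3 genes closest to it (grey, named in each panel), with lines joining libraries of a group only to guide the eye. Provisional names were left out of the closest genes. Th and Vmn2r3 share a high value in Ogg1Tg replicate 1, and Fut1 lies above the 3 genes shown with it in every Ogg1Tg library.

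A change from nearly no reads to a clear signal was rare. Of 35491 named entries, 14496 had at most 5 reads in the 3 Control libraries together, and 12 of those, 0.0338% of all entries, had at least 10 reads in each Ogg1Tg library. Fut1, Th and Mei4 were among the 12. Of the other 9, 3 bear provisional names, and the rest were Fgf21, Adm2, a peptide hormone gene, Vmn2r3, Cldn23, a tight junction gene, Mup20, a major urinary protein gene, and Clca3a2. Vmn2r3 and Mup20 belong to multigene families whose members can share reads, so their values are uncertain. Vmn2r3 had 135.5, 19.8 and 36.2 scaled reads in Ogg1Tg replicates 1, 2 and 3, and 0, 2.80 and 0 in Control replicates 1, 2 and 3 (limma adjusted p = 0.053). Cldn23, Mup20 and Clca3a2 had 108, 93 and 85 reads in Ogg1Tg and 3, 3 and 4 in Control muscle, and were not called (limma adjusted p = 0.076, 0.11 and 0.10). In the reverse direction 1 entry met the same rule, Themis3, a relative of the thymocyte gene Themis, with 0 reads in Ogg1Tg and 71 in Control muscle.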

How the data were processed

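Total RNA from gastrocnemius of 3 Ogg1Tg and 3 Control mice was purified on RNeasy columns and sequenced from NuGen Ovation Universal libraries, per the labels' protocols. Trimmomatic, SAMtools, HTSeq and mm10 are named in the submitters' processing notes. The aligner and the annotation are not named there, nor is the strand setting. Without a known strand setting, reads of overlapping genes on opposite strands may be shared. The values deposited by the authors are a signal, gene counts divided by 1 factor per library, although the file names say FPKM: 100% of values were within 0.01 of a whole multiple of 1 step per library. For Ogg1Tg replicate 3 the step was close to 1, which makes its recovery less distinctive. Entries without a gene name, 1824 of 37315, took 2.38% to 3.54% of reads and entered no test. Of 35474 symbols, 35319 matched 1 gene of GENCODE M21, which gave spans and exon lengths.

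Genes with a mean of at least 1 were tested on log2(value + 1) with limma 3.58.1 in R 4.3.3, Ogg1Tg minus Control, with a variance trend and Benjamini-Hochberg adjustment over all 23312, and called at an adjusted p under 0.05. Fold changes on this scale understate those of low genes. The design assumed FPKM; its limma test was kept for the signal. The fit was tested on simulated data. Alternatives were edgeR 4.0.16 and DESeq2 1.42.0 on the recovered reads and those in the closing section. P-values measure the spread between these samples, since the labels name no litters or batches. The 5 genes and all lists were chosen with earlier results of these data known. Genes were named by a rule that takes the 5, called list genes or the 2 highest of a list without any, overlapping and nearest genes, the 3 closest genes by pattern, and genes near 0 reads in 1 group. The search for the closest genes left out names made of Gm and a number and names ending in Rik or -ps. It also left out names starting with Mir, Snor, n-R, Rn or mt-T. Gabrr3, Gabrb2, Gad1, Gad2, Dbh, Pnmt, Ddc, Gch1, Slc17a6, Slc17a8, Rec114, Spo11, Mei1, Hsf2bp, Fut2, Fut4, Sec1, Ckm, Mb, Ighm, Gm9531 and the markers singled out are named beyond this rule, after their values had been seen. Some genes that the rule selects are not reported here. Of the listed family and pathway symbols, 124 of 131 were in the files, some of the rest being newer names of genes listed under both. Every pair of libraries differed by more than sampling noise (smallest chi-square per gene 12.9).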

Additional observations from a re-analysis of the deposited data

How the results depend on the processing

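The 5 genes were chosen on this contrast and their groups do not overlap, which fixes their direction, so only the size of the difference is read here. Over 13 alternatives the fitted log2 fold change ran from 4.50 to 5.02 for Gabrr2, 3.10 to 3.43 for Slc17a7, 4.66 to 6.65 for Mei4, 4.27 to 7.43 for Th and 6.75 to 10.1 for Fut1. The highest values of Mei4, Th and Fut1 came with the pseudocount of 0.1. The total of 127 genes called stayed within 102 and 150 under the replicate block, edgeR, median-of-ratios rescaling, a minimum mean of 5, no filter and a pseudocount of 0.1. It was 622 with DESeq2, and ran from 35 to 425 with 1 library left out. DESeq2 also called 1 GABA receptor gene, Gabrb2, 1 myofibre marker, Mb, and 8 genes within 500 kb of the 5, the last count running from 2 to 6 with 1 library left out. Leukocyte markers called ran from 0 to 1 with 1 library left out, the 1 being Ighm, lower without Ogg1Tg replicate 3. For the other lists no alternative moved the count by more than 1.5 times. The replicate numbers are shared by the groups, but the labels do not say that they pair mice, and same-numbered libraries did not deviate together (correlations -0.051, -0.011 and 0.087 over 18144 genes); with the replicate block 102 genes were called. Depth limits Th, Mei4 and Fut1 in Control muscle, at 0 to 2 reads per library.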
